A study of Homo sapiens with 6 samples.

Results

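The split examined was replicate 1 against replicates 2 and 3, across 2 lines of human ARPE-19 cells. ARPE-19 is an established line of retinal pigment epithelium (RPE), the cell layer that supports the photoreceptors. One line was wild type (WT). The other was POLDIP2 KO, made in the same cells with a lentiviral vector that carries SpCas9 and a guide RNA against POLDIP2, and kept as a puromycin-selected pool and not as 1 clone. Each line had 3 biological replicates, grown under regular maintenance and harvested on day 3, so that 2 libraries stood on the replicate 1 side and 4 on the other, of 6 in all. The libraries were placed on a side by their replicate number, a division made with earlier results of these data known. Genotype entered the fit as a covariate, and the effect of the knockout is not the subject here. The labels do not say whether libraries with the same number shared a culture day, an RNA extraction or a sequencing run.

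The 6 libraries held between 31532797 and 45795509 reads assigned to genes. WT replicate 1 was the deepest WT library with 39657489 reads, and POLDIP2 KO replicate 1 was the shallowest of its line with 31532797, so depth did not move one way with the split. Of 37902 genes in the table, 14684 had a mean of at least 10 normalised counts and were tested. A normalised count is a read count that the authors divided by a size factor for each library, and is not corrected for gene length. The RPE identity of the cells was only partly borne out by their markers: KRT8, KRT18, MITF and OTX2 were present in each library, while RPE65, the visual cycle isomerase, was at 0 in all 6. Markers of other cells were mixed. PTPRC of leukocytes did not exceed 6.95, CDH5 of endothelium was at 0 in 5 libraries, and SOX10 of melanocytes was at 0 in all 6. Other markers were read in every library, among them CD68, a lysosomal protein, with 1679.7 against 2187 and 2025 in WT and 1856 against 2129 and 1927 in POLDIP2 KO, and TUBB3, a tubulin, with 1766 against 1243 and 1399 in WT and 2323 against 1602 and 1858 in POLDIP2 KO. Of 5 endothelial markers 2 were tested and limma called 0, with 1 higher and 0 lower at an unadjusted p under 0.05, while edgeR called 0 and DESeq2 1 higher. Their summed level moved with the split: it was 199.7 and 138.0 in the replicate 1 libraries of WT and POLDIP2 KO and between 39.7 and 95.3 in the other 4. In replicate 1 most of it came from KDR, a growth factor receptor, with 161 against 33.1 and 19.8 in WT and 106 against 43.96 and 24.8 in POLDIP2 KO (adjusted p = 0.0585, limma). The part of such cells in the results was not tested. The POLDIP2 value was 3919 in WT replicate 1 against 4827 and 4798 in WT replicates 2 and 3, and 1063 against 1248 and 1143 in POLDIP2 KO. The lines separated as labelled, and within each line replicate 1 was the lowest, with a replicate 1 difference of -0.23 ± 0.0932 (standard error) on the log2 scale and an adjusted p = 0.218 (limma).

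Oxidative and electrophilic stress is sensed in most cells by KEAP1, which holds the transcription factor NRF2 (encoded by NFE2L2) at a low level until its cysteines are modified. Released NRF2 pairs with a small MAF protein and binds antioxidant response elements, from which it drives genes for glutathione and thioredoxin reduction, NADPH supply, iron storage and drug export. RPE cells meet a heavy oxidative load, and also lay down and remodel the basement membrane beneath them. When such cells become mesenchymal, as TGF-beta can make them do, fibronectin, collagens and contractile actin proteins increase together.

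Within each line, replicate 1 stood farther from replicates 2 and 3 than these stood from each other. The median absolute log2 difference over the genes tested was 0.269 and 0.27 between WT replicate 1 and WT replicates 2 and 3, and 0.225 between the latter. In POLDIP2 KO it was 0.294 and 0.269 for replicate 1, and 0.196 between replicates 2 and 3. The replicate 1 libraries of the 2 lines differed from each other by 0.209, less than either differed from its own line's other replicates. Between lines the same measure was 0.206 for replicate 2 and 0.209 for replicate 3. A gene was called when its adjusted p in limma was under 0.05 and its change exceeded 1.5-fold. By this rule 236 genes (1.61% of those tested) were higher in replicate 1 and 130 (0.885%) were lower. Of these 366 genes, 189 changed by more than 2-fold, and in all 366 replicate 1 lay beyond both other replicates on the same side in both lines. The calls rest on the same values and favour such separation, so it is not further evidence for the split. Over all genes tested, replicate 1 lay above both others in each line for 3224 genes (22.0%) and below both for 3007 (20.5%). The median log2 difference over all genes tested was -0.001. At an adjusted p under 0.05 with no limit on fold limma passed 412 genes (2.81%). At an unadjusted p under 0.05, 1748 of the 14684 genes tested were higher and 1439 lower in limma. Counts of list members at an unadjusted p are to be read beside these. On reads recovered from the table edgeR called 227 genes higher (1.55%) and 104 lower (0.708%), and DESeq2 called 575 (3.92%) and 386 (2.63%).

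The counts changed with the libraries kept. Without POLDIP2 KO replicate 1 limma called 0 genes higher and 3 lower, with 1721 genes at an unadjusted p under 0.05, and without WT replicate 1 it called 2 higher and 12 lower. Without WT replicate 3 it called 58 and 30, without POLDIP2 KO replicate 2 60 and 36, and without POLDIP2 KO replicate 3 172 and 64. Without a trend of variance with level limma called 22 and 16, and with an interaction term 24 and 25. From the fifth of genes with the lowest GC content to that with the highest, the median log2 difference went from -0.098 to 0.168 in POLDIP2 KO and was 0.019 at both ends in WT, and with length and GC content corrected 253 genes were higher and 149 lower. With 1 replicate 1 library in each line, the replicate number can be rearranged within lines in 9 ways, so that an exact permutation test of a single gene cannot give a p below 0.111.

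Among the genes that were higher in replicate 1, TAGLN, which encodes the actin-binding protein transgelin of contractile cells, had the smallest p of those with reads in every library. Its normalised counts were 35184 in WT replicate 1 against 2228 and 1425 in WT replicates 2 and 3, and 51738 against 4102 and 5461 in POLDIP2 KO. Both replicate 1 libraries stood far above all 4 others, with a difference of 3.88 ± 0.26 on the log2 scale (95% interval 3.24 to 4.51, adjusted p = 0.00808 in limma's test). FN1, fibronectin, a matrix glycoprotein, had 78077 against 21007 and 25817 in WT and 95745 against 30298 and 34562 in POLDIP2 KO. SPARC, a secreted protein that binds collagen, had 59579 against 34361 and 32558 in WT and 59461 against 29320 and 30867 in POLDIP2 KO. COL4A2, a chain of basement membrane collagen IV, had 68383 against 36208 and 33402 in WT and 79465 against 38443 and 38369 in POLDIP2 KO. For these matrix genes the groups did not overlap, and the values of replicates 2 and 3 lay close together. The leading genes were chosen with replicate 1 beyond both other replicates in each line, which favours such separation. Here and below, the share of all genes whose replicate 1 values lie on one side of all 4 other libraries is not given. The log2 differences were 1.66 ± 0.12 for FN1, 0.91 ± 0.0842 for SPARC and 1.01 ± 0.0815 for COL4A2.

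**Figure D1:**
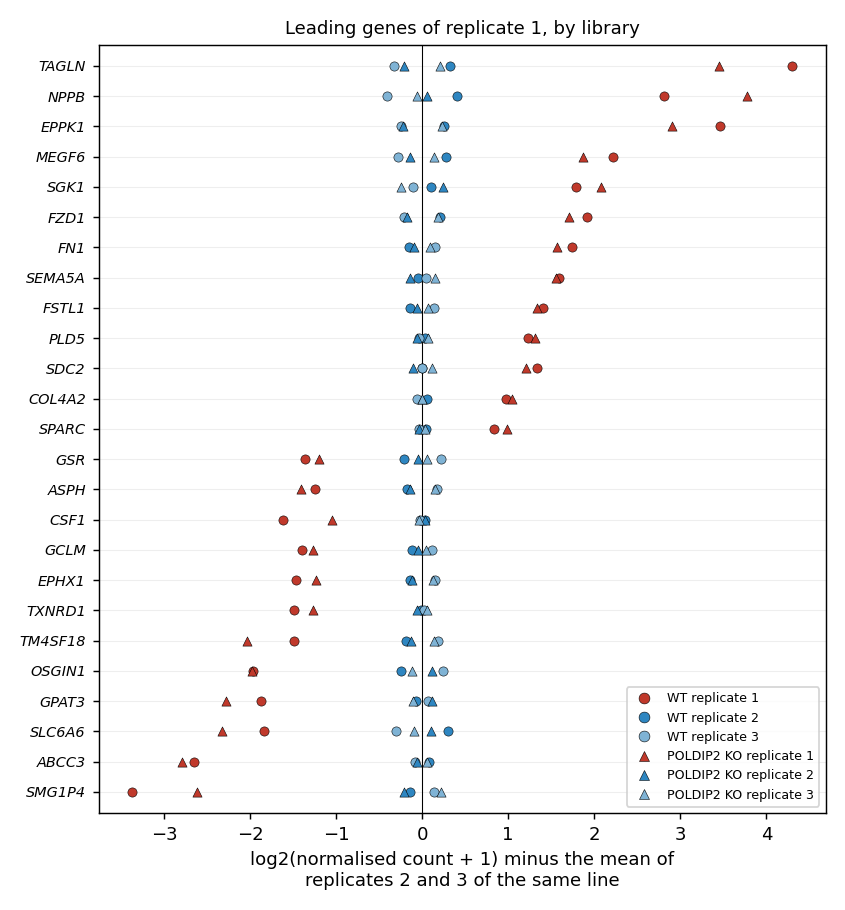
Each row is a gene among the 15 with the smallest p-values in its direction, except MIF, FLOT1 and MOAP1, which are at 0 in some libraries, and genes not reported here, and the horizontal axis gives log2(normalised count + 1) minus the mean of replicates 2 and 3 of the same line. Circles are WT and triangles POLDIP2 KO, and red marks replicate 1. The genes were chosen with replicate 1 beyond replicates 2 and 3 on the same side in each line. By that choice the red points lie on one side of the blue points of the same line. Rows run from TAGLN at the top (mean difference 3.88) to SMG1P4 at the bottom (-2.996).

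Several other leading genes encode cell surface or secreted proteins. SEMA5A, a semaphorin, had 5595 against 1800.0 and 1918 in WT and 4559 against 1399 and 1716 in POLDIP2 KO. SDC2, the heparan sulphate proteoglycan syndecan 2, had 9446 against 3751 and 3759.9 in WT and 7253 against 2921 and 3395 in POLDIP2 KO. FSTL1, a secreted follistatin-like glycoprotein, had 81119 against 27800.1 and 33579 in WT and 80555 against 30539 and 33434 in POLDIP2 KO. In all 3 both replicate 1 values lay above the other 4 libraries. FZD1, a Wnt receptor, had 3972 against 1217 and 909 in WT and 3277 against 882 and 1135 in POLDIP2 KO. MEGF6, a protein with EGF-like repeats, had 2949 against 769 and 524 in WT and 7692 against 1909 and 2309 in POLDIP2 KO and was higher in POLDIP2 KO than in WT for every replicate number. NPPB, the precursor of B-type natriuretic peptide, had 6676 against 1261 and 718 in WT and 2377 against 179 and 166 in POLDIP2 KO. Both NPPB values of replicate 1 lay above the other 4, and WT was above POLDIP2 KO for every replicate number.

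EPPK1, the cytoskeletal linker epiplakin, had 777 against 83.3 and 58.5 in WT and 568 against 64.3 and 88.4 in POLDIP2 KO. It was low in replicates 2 and 3 and several times higher in replicate 1, by 3.18 ± 0.27 on the log2 scale. SGK1, a kinase induced by serum and glucocorticoids, had 2528 against 787 and 682 in WT and 2048 against 576 and 408 in POLDIP2 KO. PLD5, a member of the phospholipase D family, had 1663 against 725 and 691 in WT and 1198 against 462 and 503 in POLDIP2 KO. The differences were 1.93 ± 0.17 and 1.27 ± 0.11. Adjusted p-values of the leading higher genes named so far lay between 0.00808 (TAGLN) and 0.0122 (SPARC) in limma.

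The genes that were lower in replicate 1 were led, among those with reads in every library, by ABCC3, an export pump for conjugated compounds. Its normalised counts were 333 in WT replicate 1 against 2221 and 1988 in WT replicates 2 and 3, and 447 against 2962 and 3212 in POLDIP2 KO. The difference was -2.72 ± 0.11 on the log2 scale, with an adjusted p = 3.98e-04 (limma). TXNRD1, cytosolic thioredoxin reductase, had 43497 against 120531 and 123288 in WT and 55084 against 128057 and 138593 in POLDIP2 KO. GCLM, the regulatory subunit of the enzyme that starts glutathione synthesis, had 1669 against 4066 and 4789 in WT and 1853 against 4321 and 4618 in POLDIP2 KO. In both genes both replicate 1 values lay below all 4 others. The log2 differences were -1.38 ± 0.0941 (TXNRD1) and -1.34 ± 0.10 (GCLM).

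OSGIN1, a stress-responsive growth inhibitor, had 165 against 549.8 and 769.5 in WT and 133 against 567 and 485 in POLDIP2 KO. EPHX1, microsomal epoxide hydrolase, had 1215 against 3048 and 3721 in WT and 1555 against 3361 and 3976 in POLDIP2 KO. GSR, glutathione reductase, had 2092 against 4648 and 6250.1 in WT and 2358 against 5238 and 5639 in POLDIP2 KO. All were lower in replicate 1, by log2 differences from -1.97 (OSGIN1) to -1.28 (GSR). Other genes of this direction have different roles. SLC6A6, the taurine transporter, had 2189 against 9656 and 6381 in WT and 2184 against 11692 and 10182 in POLDIP2 KO. GPAT3, an enzyme of triglyceride synthesis, had 169 against 593 and 654 in WT and 130.4 against 689.5 and 592 in POLDIP2 KO. CSF1, the growth factor of macrophages, had 1288 against 4034 and 3873 in WT and 3613 against 7642 and 7258 in POLDIP2 KO, and was higher in POLDIP2 KO than in WT for every replicate number. TM4SF18, a 4-pass membrane protein, had 461 against 1146 and 1477 in WT and 439 against 1645 and 1978 in POLDIP2 KO. ASPH, aspartate beta-hydroxylase, had 21734 against 45671 and 58093 in WT and 26742 against 64144 and 78659 in POLDIP2 KO. SMG1P4, a pseudogene of the kinase gene SMG1, had 28.3 against 275 and 335 in WT and 34.4 against 186 and 251 in POLDIP2 KO. SMG1P4 has near-identical copies among which reads can be divided, so its difference of -2.996 ± 0.274 is uncertain.

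NRF2 targets formed the list with the lowest median. Of 27 genes on the list 25 were tested, and 17 of the 25 were lower in replicate 1 and 0 were higher, against 0.885% of all genes called lower. No member was higher at an unadjusted p under 0.05 in limma, edgeR and DESeq2 called 0 higher, and edgeR called 14 and DESeq2 20 lower. The median log2 difference was -1.35, beside -0.001 over all genes tested. It was -1.40 in WT and -1.20 in POLDIP2 KO. For 24 of 25 genes replicate 1 was below both others in each line, beside 20.5% of all genes. The exception was UGDH, which makes UDP-glucuronic acid, with 2253 against 2491 and 2624 in WT and 2426 against 2168 and 2829.9 in POLDIP2 KO. The number called lower ranged from 0 (without POLDIP2 KO replicate 1) to 15 when libraries were left out. It was 1 without WT replicate 1, 11 without WT replicate 3 and 9 without POLDIP2 KO replicate 3, and the median stayed between -1.42 and -1.20. Without a trend of variance 2 genes of the list were called, with an interaction term 5, when tested against 1.5-fold 2, and without replicate 3 of both lines 1.

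To show what an antioxidant response element looks like at genes that changed, the 250 bases before the start of TXNRD1 and GCLM are given, from RefSeq on GRCh38.p14. Capitals mark a match to the core TGACNNNGC, on either strand.
TXNRD1, chr12:104215529-104215778, plus strand: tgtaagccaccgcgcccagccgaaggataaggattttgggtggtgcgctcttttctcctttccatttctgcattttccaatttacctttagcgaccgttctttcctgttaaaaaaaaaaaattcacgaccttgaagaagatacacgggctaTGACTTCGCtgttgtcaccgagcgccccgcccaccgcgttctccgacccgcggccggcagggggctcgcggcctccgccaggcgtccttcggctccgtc
GCLM, chr1:93909431-93909680, minus strand: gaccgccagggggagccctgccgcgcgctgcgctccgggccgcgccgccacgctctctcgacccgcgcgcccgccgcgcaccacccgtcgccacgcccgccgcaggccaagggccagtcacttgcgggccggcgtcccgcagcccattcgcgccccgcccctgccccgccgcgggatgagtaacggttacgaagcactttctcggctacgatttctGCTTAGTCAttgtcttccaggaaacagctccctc
In TXNRD1 the match begins 99 bases before the start and in GCLM 34 bases before it. This core was held by 4 of the 17 NRF2 targets with a promoter in the RefSeq set (23.5%), and by 3 of the 10 called among them, beside 11.8% of 10563 promoters of tested genes. Such a match is a description of the sequence and not a measured binding site, and elements farther from the start lie outside this window.

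Several genes of the glutathione and thioredoxin branches were lower in replicate 1. SLC7A11, the cystine importer, had 1790.2 against 4065 and 7886 in WT and 2128 against 4570.1 and 5777 in POLDIP2 KO. SRXN1, sulfiredoxin, had 2250.3 against 4349.6 and 5815 in WT and 2421 against 4977 and 5428 in POLDIP2 KO. TXN, thioredoxin, had 3927 against 6276 and 9164 in WT and 4842 against 8483 and 10258 in POLDIP2 KO. The groups did not overlap for these genes, with log2 differences of -1.47 ± 0.27, -1.13 ± 0.13 and -0.95 ± 0.17. GCLC, the catalytic partner of GCLM, had 1289.5 against 1862 and 2390 in WT and 1320.0 against 1644 and 2175 in POLDIP2 KO, a difference of -0.61 ± 0.16 that did not pass the test (adjusted p = 0.101, limma). The peroxidase PRDX1, with 12212 against 14781 and 21140.4 in WT and 13903 against 18796 and 21973 in POLDIP2 KO, also did not pass it (adjusted p = 0.118, limma).

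The iron and haem genes of the list were also lower in replicate 1. FTL and FTH1 encode the light and heavy chains of ferritin, which stores iron. FTL had 33454 against 102721 and 164958 in WT and 43025 against 103570 and 144576 in POLDIP2 KO. FTH1 had 68139 against 167200 and 192169 in WT and 90439.8 against 170447 and 199433 in POLDIP2 KO. The log2 differences were -1.73 ± 0.24 and -1.21 ± 0.13. HMOX1, which breaks down haem, had 700.0 against 2456 and 2856 in WT and 1179 against 2128 and 2376 in POLDIP2 KO, a difference of -1.42 ± 0.23 (adjusted p = 0.0341, limma). In each of these genes the 4 libraries of replicates 2 and 3 lay above both replicate 1 libraries. Outside the list, and chosen after the values were seen, TFRC, the receptor that imports iron with transferrin, was also lower in replicate 1, with 14821 against 22341 and 29962 in WT and 15754 against 27509 and 28941 in POLDIP2 KO. ALAS1, the first enzyme of haem synthesis, had 1077 against 1973 and 2107 in WT and 972 against 1486 and 1595 in POLDIP2 KO. Their adjusted p-values in limma were 0.0332 (TFRC) and 0.0257 (ALAS1).

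Among enzymes that reduce quinones and carbonyls, NQO1 had 6899 against 23738 and 44125 in WT and 10643 against 27827 and 45411 in POLDIP2 KO. AKR1C3, an aldo-keto reductase, had 180.4 against 683 and 1264 in WT and 159.9 against 496 and 810.2 in POLDIP2 KO. Replicate 3 was above replicate 2 in each line for both genes, and this was so for 20 of the 25 tested NRF2 targets, beside 26.9% of all genes. For 19 of the 25 the other replicates were nonetheless nearer to each other than to replicate 1 in each line. AKR1B10 had 1.89 against 60.2 and 92.9 in WT and 9.84 against 58.6 and 135 in POLDIP2 KO, where the WT replicate 1 value comes from 2 reads and no fold is given. AKR1B1 had 13227 against 38647 and 60511 in WT and 30946 against 59682 and 54530 in POLDIP2 KO and narrowly missed the threshold (log2 difference -1.38 ± 0.26, adjusted p = 0.0539, limma). ME1, malic enzyme, known as a source of NADPH, was lower in replicate 1, with 1489 against 2746 and 2987 in WT and 1867 against 2835 and 3463 in POLDIP2 KO. The differences of 3 pentose phosphate genes on the list did not pass the test: -0.72 for TKT, -0.36 for PGD and -0.33 for TALDO1 on the log2 scale.

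**Figure D2:**
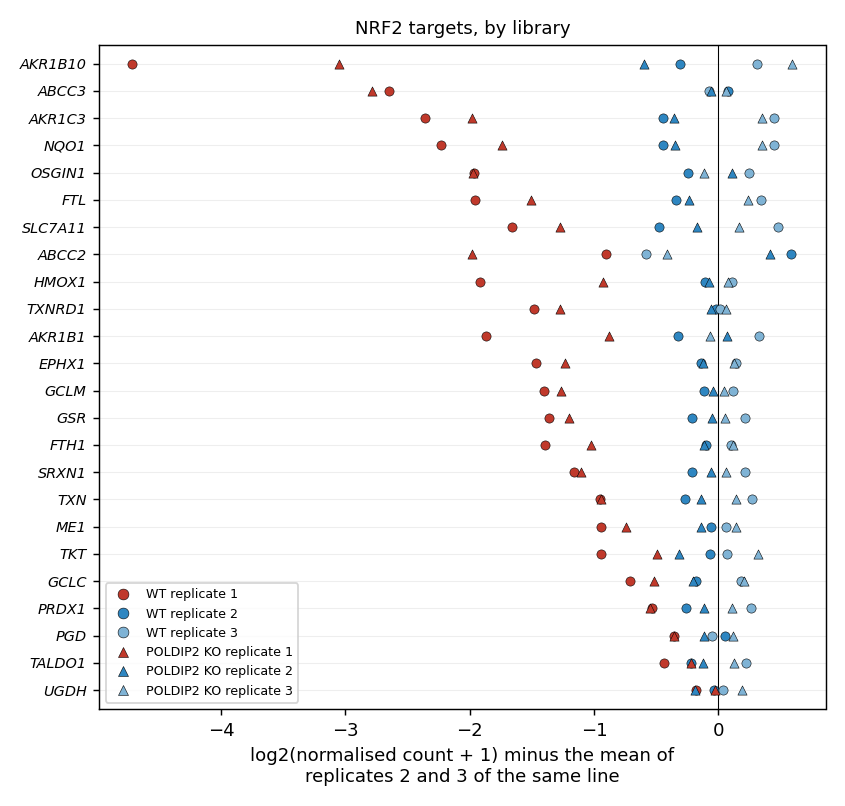
The rows are 24 of the 25 tested NRF2 targets, and the horizontal axis gives log2(normalised count + 1) minus the mean of replicates 2 and 3 of the same line. The red replicate 1 points of both lines (circles WT, triangles POLDIP2 KO) lie left of the blue points of the same line in every row but UGDH.

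The transcripts of the regulators themselves had smaller differences, except MAFG. They are not on the list and were chosen after the values were seen. NFE2L2, which encodes NRF2, had 3923 against 3766 and 3694 in WT and 4599.7 against 3714 and 4079 in POLDIP2 KO. KEAP1 had 3077 against 2975 and 3627 in WT and 2624 against 2665 and 3263 in POLDIP2 KO. Neither passed the test, with log2 differences of 0.16 ± 0.0913 and -0.13 ± 0.13 and adjusted p = 0.377 and 0.614 (limma). BACH1, a repressor that binds the same elements, had 1645 against 2844 and 2019 in WT and 1669 against 2530.1 and 2516 in POLDIP2 KO. Its difference of -0.57 ± 0.15 did not pass the test either (adjusted p = 0.0965, limma). MAFG, a small MAF partner and itself a known NRF2 target, was lower in replicate 1, with 1249.8 against 2918 and 3067 in WT and 1443 against 2603 and 2562 in POLDIP2 KO and a difference of -1.05 ± 0.12. TRIM16L, likewise seen among the called genes, had 880.5 against 4691 and 7679 in WT and 1743 against 5378 and 8078 in POLDIP2 KO. TRIM16, its near copy, had 1412 against 3667 and 5004 in WT and 2201 against 4311 and 5936 in POLDIP2 KO, and reads may be divided between them.

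Of the lists with at least 8 tested genes, collagens and matrix had the highest median. Of 39 tested, 15 were higher in replicate 1 and 0 were lower, against 1.61% of all genes called higher. No member was lower at an unadjusted p under 0.05 in limma, edgeR and DESeq2 called 0 lower, and they called 13 and 17 higher. The median log2 difference was 0.93, with 0.72 in WT and 0.95 in POLDIP2 KO. Replicate 1 lay above both others in each line for 25 of 39, beside 22.0% of all genes. Some members, among them POSTN, COL1A2, COL3A1 and THBS2, reached the filter of a mean of at least 10 only through replicate 1. Such members favour a higher count and median. With a mean of at least 50, 12 of 29 tested were called higher and 0 lower, and the median was 0.664. Without genes that had at most 3 reads in some library and at least 100 normalised counts in another the median was 0.75 over 35 genes, with 14 called. Leaving out libraries moved the count between 0 (without POLDIP2 KO replicate 1, and also without WT replicate 1) and 13, with 6 called without WT replicate 3 and 6 without POLDIP2 KO replicate 2. The median over these settings lay between 0.80 and 0.95. Without a trend of variance 2 genes of the list were called, with an interaction term 2, without a genotype term 7, and when tested against 1.5-fold 1.

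Collagen IV, the network-forming collagen of basement membranes, was called for 4 of the 6 alpha chains, all higher in replicate 1. COL4A1, which forms trimers with COL4A2, had 61714 against 18322 and 29148 in WT and 84845 against 30798 and 42800.2 in POLDIP2 KO. COL4A3 had 2939.9 against 1196 and 819.6 in WT and 2443 against 788 and 962 in POLDIP2 KO. COL4A4 had 8365 against 2329.8 and 2058 in WT and 6906 against 1739.7 and 2607 in POLDIP2 KO. Replicate 1 was above all other libraries for each of the 4 chains. COL4A5 had 2209.7 against 1669.6 and 1081 in WT and 2314 against 1828 and 1543 in POLDIP2 KO and did not pass the test (log2 difference 0.59 ± 0.19, adjusted p = 0.153, limma). COL4A6 had 75.6 against 77.3 and 75.2 in WT and 49.2 against 78.1 and 66.5 in POLDIP2 KO (adjusted p = 0.609, limma).

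Fibrils and their assembly made up most of the remainder. FBN1, fibrillin 1, had 42236 against 17549 and 17672 in WT and 48057 against 19506 and 26883 in POLDIP2 KO. LOX, the enzyme that crosslinks collagen and elastin, had 34094 against 13679 and 17945 in WT and 48555 against 18413 and 23412 in POLDIP2 KO. TIMP3, an inhibitor of matrix proteases that stays bound in the membrane beneath the RPE, had 34866 against 15520 and 15659.8 in WT and 50553 against 16683 and 27035 in POLDIP2 KO. All were higher in replicate 1, with log2 differences of 1.17 ± 0.14, 1.17 ± 0.15 and 1.21 ± 0.18. COL11A1 had 47801 against 24159.9 and 22819 in WT and 56259 against 26363 and 37845 in POLDIP2 KO. COL5A2 had 9990.2 against 5791 and 5723 in WT and 10579.8 against 6669 and 8012 in POLDIP2 KO. Both fibrillar collagens were called, at 0.93 ± 0.15 and 0.66 ± 0.11. THBS1, thrombospondin 1, had 136720 against 42311 and 125526 in WT and 193628 against 76826 and 130287 in POLDIP2 KO; replicates 2 and 3 differed widely and the difference did not pass the test (adjusted p = 0.276, limma).

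Some matrix genes were low outside replicate 1. POSTN, periostin, had 76.5 against 4.01 and 6.26 in WT and 77.5 against 5.70 and 2.98 in POLDIP2 KO. VCAN, the proteoglycan versican, had 84.1 against 5.02 and 5.22 in WT and 124 against 21.2 and 8.94 in POLDIP2 KO. COL5A1 had 437 against 92.3 and 34.5 in WT and 65.2 against 0 and 0 in POLDIP2 KO, with 0 reads in both other POLDIP2 KO libraries, so that no fold is given for that line. COL1A1 had 2147 against 320.1 and 677 in WT and 6956 against 759.5 and 1953 in POLDIP2 KO, a difference of 2.36 ± 0.44. Its partner chain in collagen I, COL1A2, was abundant in POLDIP2 KO replicate 1 alone, with 9.45 against 2.01 and 1.04 in WT and 614 against 0 and 1.99 in POLDIP2 KO (adjusted p = 0.113, limma). COL3A1, with 2.83 against 3.01 and 7.31 in WT and 124 against 17.9 and 4.96 in POLDIP2 KO, COL6A3, with 8.50 against 5.02 and 10.4 in WT and 105 against 17.1 and 7.94 in POLDIP2 KO, and THBS2, with 0 against 0 and 31.3 in WT and 185 against 6.51 and 0 in POLDIP2 KO, were likewise highest in that library and did not pass the test.

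Of the 7 fibroblast markers on the list, 5 were tested and 1, COL1A1, was called higher, beside 1.61% of all genes. COL3A1 was among the tested only through its value in POLDIP2 KO replicate 1. Their summed level was 6821.0 and 13762.2 normalised counts in the replicate 1 libraries of WT and POLDIP2 KO and between 2107.8 and 4860.8 in the other 4. Most of the summed counts came from COL1A1, itself one of the matrix genes above, and from PDGFRB, a growth factor receptor that had 4623 against 1778 and 2223 in WT and 6572 against 1293 and 2879.6 in POLDIP2 KO. Not all markers followed the split. THY1 had 29.3 against 36.1 and 54.3 in WT and 70.1 against 11.4 and 15.9 in POLDIP2 KO. PDGFRA lay between the other replicates, with 17.9 against 29.1 and 9.4 in WT and 14.8 against 23.6 and 8.94 in POLDIP2 KO. LUM was at 0 in 4 libraries, and DCN did not exceed 13.5 in any. The part of such cells in the matrix result was not tested. Without POLDIP2 KO replicate 1, the library with the highest sum, the median of the collagens and matrix list was 0.80 over 35 genes. That setting keeps WT replicate 1, whose sum of 6821.0 was itself above the 2171.2 and 2969.0 of the other WT libraries. In these bulk samples, more cells of a type and more RNA per cell cannot be told apart.

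**Figure D3:**
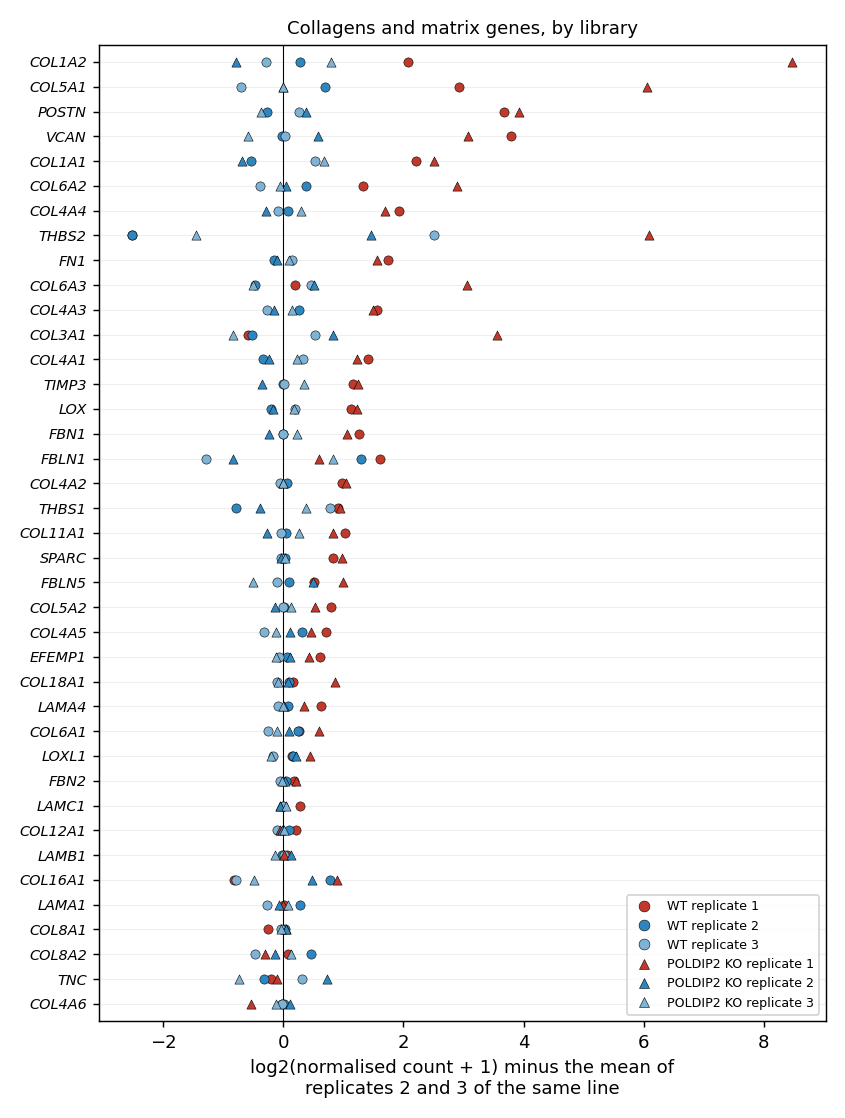
Each row is 1 of the 39 tested collagen and matrix genes, and the horizontal axis gives log2(normalised count + 1) minus the mean of replicates 2 and 3 of the same line. Red replicate 1 points (circles WT, triangles POLDIP2 KO) lie right of the blue points of the same line in 25 rows, and at COL1A2, THBS2 and COL3A1 the POLDIP2 KO replicate 1 point stands apart.

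Contractile and actin genes were higher in replicate 1 for 4 of the 17 tested, beside 1.61% of all genes called higher, and 0 were lower. The median was 0.57, and for 16 of 17 replicate 1 lay above both others in each line, beside 22.0% of all genes. No member was lower at an unadjusted p under 0.05 in limma, and edgeR and DESeq2 called 0 lower. Beside TAGLN these were MYL9, a myosin light chain, with 24562 against 9195 and 7812 in WT and 30488 against 8614 and 12937 in POLDIP2 KO, and CALD1, caldesmon, with 38359.5 against 14277 and 13271 in WT and 34136 against 12804 and 17496 in POLDIP2 KO. TPM2, a tropomyosin, had 27761 against 15514 and 18339 in WT and 28883 against 16813 and 21039.7 in POLDIP2 KO. The called differences were 1.53 ± 0.17, 1.33 ± 0.15 and 0.67 ± 0.12. ACTA2, smooth muscle actin, had 2879 against 2152 and 1624 in WT and 3057 against 1970.0 and 1789 in POLDIP2 KO, a difference of 0.66 ± 0.14 that did not pass the test (adjusted p = 0.061, limma). FLNA, filamin A, had 220075 against 165975 and 179806 in WT and 242657 against 173626 and 203649 in POLDIP2 KO; replicate 1 was highest in each line, but the difference was 0.36 ± 0.11 (adjusted p = 0.124, limma).

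TGF-beta targets had a median of 0.70, with 4 of 16 tested called higher, beside 1.61% of all genes, and 0 lower. Replicate 1 was above both others in each line for 14 of 16, beside 22.0% of all genes. No member was lower at an unadjusted p under 0.05 in limma, and edgeR and DESeq2 called 0 lower. TGFB2, a TGF-beta ligand, had 30419 against 18924 and 19167 in WT and 27617 against 13268 and 15756 in POLDIP2 KO. LTBP1, which tethers latent TGF-beta to the matrix, had 922 against 517 and 439.6 in WT and 1156 against 689.5 and 754 in POLDIP2 KO. LOXL2, a matrix crosslinking enzyme, had 36783 against 21592 and 18440.3 in WT and 45167 against 24534 and 24679 in POLDIP2 KO, and the protease ADAM19 had 2303 against 1144 and 1468 in WT and 2710.1 against 1483 and 1626 in POLDIP2 KO. All 4 were higher in replicate 1, with log2 differences from 0.80 (TGFB2) to 0.88 (LOXL2). SMAD7, a feedback inhibitor of TGF-beta signalling, had 1598 against 789.6 and 1017 in WT and 1438 against 707 and 1074 in POLDIP2 KO and did not pass the test (adjusted p = 0.0934, limma).

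YAP and its relative TAZ carry mechanical and cell-contact signals to TEAD factors, and 5 of their 25 tested target genes were higher in replicate 1, beside 1.61% of all genes, and 0 lower. Replicate 1 lay above both others in each line for 13 of 25 and below both for 3, beside 22.0% and 20.5% of all genes. No member was lower at an unadjusted p under 0.05 in limma, and edgeR and DESeq2 called 0 lower. The list median was 0.31. CCN2, a matricellular growth factor also known as CTGF, had 19491 against 11518 and 8131 in WT and 28934 against 10325 and 11615 in POLDIP2 KO. ANKRD1, a nuclear ankyrin-repeat protein, had 16262 against 7160.0 and 4951 in WT and 9692 against 2439.7 and 3368 in POLDIP2 KO. In both, replicate 1 was above the other replicates of its line, by 1.21 ± 0.17 and 1.60 ± 0.20 on the log2 scale. AMOTL2 and WWC2, which restrain YAP, were called higher as well (0.73 and 0.75), and FSTL1 is the fifth. IGFBP3 had 45841 against 4952 and 18069.6 in WT and 50129.7 against 8785 and 16609 in POLDIP2 KO; its difference of 2.16 ± 0.51 was large but replicates 2 and 3 were far apart (adjusted p = 0.0819, limma). NUAK2 lay in the opposite direction in each line, with 808 against 1492 and 1139 in WT and 830.4 against 899 and 905 in POLDIP2 KO, and did not pass the test (adjusted p = 0.255, limma). The calls of the contractile, TGF-beta and YAP lists fell to 0 without either replicate 1 library, to 1, 2 and 1 without WT replicate 3 and to 3, 0 and 2 without POLDIP2 KO replicate 2, and to 1, 0 and 0 without a trend of variance or when tested against 1.5-fold. With an interaction term they were 1, 0 and 1, without a genotype term 3, 1 and 4, and without replicate 3 of both lines 2, 0 and 2. DESeq2 called 7, 9 and 9 higher and edgeR 3, 4 and 5. TGF-beta targets had 2 calls without POLDIP2 KO replicate 3. Their medians over left-out libraries lay between 0.434 and 0.69, 0.567 and 0.807, and 0.227 and 0.41.

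The 250 bases before the start of CCN2 and ANKRD1 are shown because both were called and hold the TEAD core, GGAATG, more than once. Capitals mark it (RefSeq, GRCh38.p14).
CCN2, chr6:131951373-131951622, minus strand: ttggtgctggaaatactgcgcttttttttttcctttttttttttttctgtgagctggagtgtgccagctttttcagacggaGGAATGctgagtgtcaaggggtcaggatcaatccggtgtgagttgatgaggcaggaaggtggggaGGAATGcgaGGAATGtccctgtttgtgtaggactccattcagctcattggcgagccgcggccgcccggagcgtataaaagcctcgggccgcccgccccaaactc
ANKRD1, chr10:90921088-90921337, minus strand: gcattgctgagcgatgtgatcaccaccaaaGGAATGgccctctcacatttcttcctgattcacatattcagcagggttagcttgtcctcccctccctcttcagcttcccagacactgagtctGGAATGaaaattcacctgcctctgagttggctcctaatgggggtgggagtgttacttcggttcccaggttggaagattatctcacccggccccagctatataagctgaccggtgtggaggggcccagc
CCN2 holds 3 matches and ANKRD1 2. The core, searched on both strands, was present in 7 of 19 promoters of YAP and TEAD targets (36.8%), beside 9.3% of all 10563. WWC2, which was called, holds 2 matches as well and is not shown. NUAK2, which was not called, also holds it.

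Genes of glycolysis and the response to low oxygen had a median of 0.48, with 2 of 35 called higher (5.71%), beside 1.61% of all genes, and 0 lower. One member was lower at an unadjusted p under 0.05 in limma, beside 1439 lower and 1748 higher of all 14684 genes tested. DESeq2 called 11 higher and 1 lower, and edgeR 2 and 0. Limma called 0 of the list without a trend of variance, with an interaction term or when tested against 1.5-fold. Replicate 1 lay above both others in each line for 24 of 35, beside 22.0% of all genes. P4HA2, which hydroxylates proline in collagen, had 4783 against 2715 and 2543 in WT and 5522 against 2838 and 3360.2 in POLDIP2 KO. CA9, a surface carbonic anhydrase induced by low oxygen, had 4741 against 2309 and 2978 in WT and 8234 against 3301 and 4486 in POLDIP2 KO. These were the called members, at 0.85 ± 0.10 and 0.98 ± 0.17. Limma called 0 of the 35 without either replicate 1 library, without WT replicate 3 or without POLDIP2 KO replicate 2, 4 without WT replicate 2, and 21 members were higher at an unadjusted p under 0.05 with all libraries. VEGFA, with 5391 against 4444 and 3323 in WT and 5816 against 2895 and 3486 in POLDIP2 KO, and ANKRD37, with 244 against 102 and 114 in WT and 276 against 69.2 and 128 in POLDIP2 KO, had adjusted p = 0.0833 and 0.068 (limma). CA12, another carbonic anhydrase, lay the other way, with 283 against 552 and 747 in WT and 540.1 against 808 and 1152 in POLDIP2 KO (adjusted p = 0.0636, limma).

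Lists for cell division held few called genes. For DNA replication 0 of 33 genes were called in either direction by limma, edgeR or DESeq2, with 0 at an unadjusted p under 0.05, and the median was 0.10 in WT and -0.19 in POLDIP2 KO. For mitosis 1 of 30 was called higher (3.33%), beside 1.61% of all genes, and edgeR called 0 and DESeq2 1. That gene was KIF11, a spindle motor, with 4097 against 2427 and 2071 in WT and 3469 against 2386 and 1787 in POLDIP2 KO. The medians were 0.25 in WT and -0.29 in POLDIP2 KO. The sign of both medians thus differed between lines, a difference that was not tested. For replication and mitosis, the medians of replicate 2 minus replicate 3 were -0.414 and -0.565 in WT and 0.285 and 0.011 in POLDIP2 KO. In WT these were larger in size than the replicate 1 medians. Cytosolic ribosomal proteins had a median of -0.27 with 0 of 75 called by limma or edgeR and 1 by DESeq2, and 47 lower at an unadjusted p under 0.05. Of all 14684 genes tested, 1439 were lower and 1748 higher at that unadjusted p in limma. Replicate 1 lay below both others in each line for 58 of the 75, beside 20.5% of all genes. Ribosome biogenesis factors (median -0.36, 15 of 19 below both) and the 13 mitochondrially encoded transcripts (median -0.34, 11 below both) were similarly placed. In limma and edgeR neither list had a call, with 13 and 8 genes lower at an unadjusted p under 0.05, and DESeq2 called 3 and 0. Among 40 tested interferon-induced genes 2 were higher (5.0%), beside 1.61% of all genes, and 0 lower, with 10 higher and 4 lower at an unadjusted p under 0.05. Limma, edgeR and DESeq2 made the same numbers of calls. Replicate 1 lay above both others in each line for 15 of the 40 and below both for 7. The called genes were OAS3, an RNA sensor, with 402 against 75.3 and 45.9 in WT and 509 against 70.0 and 62.6 in POLDIP2 KO, and HLA-B, with 7129 against 5077 and 4240.2 in WT and 10219 against 6524 and 5779 in POLDIP2 KO.

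The RPE genes moved in both directions. Of 40 tested, 4 were higher in replicate 1 and 2 were lower, beside 1.61% and 0.885% of all genes, and the median was 0.06. RDH10, a retinol dehydrogenase of the visual cycle, had 9656 against 3518 and 4159.8 in WT and 10620.4 against 4941 and 6746 in POLDIP2 KO. EZR, ezrin of the apical microvilli, had 40114 against 25224 and 26923 in WT and 39121 against 23810.4 and 29279 in POLDIP2 KO. TIMP3 and PLD5, described above, were the other 2. LHX2, a transcription factor of eye development, had 1119 against 1521 and 1642 in WT and 952 against 1519.8 and 1576 in POLDIP2 KO, and GULP1, an adaptor for engulfment, had 654 against 1031 and 989.8 in WT and 584 against 1059 and 1189 in POLDIP2 KO. LHX2 and GULP1 were lower in replicate 1, at -0.60 ± 0.10 and -0.78 ± 0.13. BEST1, the bestrophin chloride channel of the RPE, had 61.4 in WT replicate 1 against 562 and 377 in WT replicates 2 and 3, and 239 against 419 and 669 in POLDIP2 KO. Both replicate 1 values lay below the other 4, a difference of -2.02 ± 0.43 on the log2 scale, but the test was not passed (adjusted p = 0.0655, limma). RDH5, another retinol dehydrogenase, had 208 against 266 and 322 in WT and 188 against 246 and 247 in POLDIP2 KO (adjusted p = 0.199, limma), and MITF, a factor of pigment cells, had 4401 against 3463 and 3629 in WT and 4217 against 2955 and 4503 in POLDIP2 KO (adjusted p = 0.428, limma).

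A list of 14 genes named by the study held POLDIP2, 4 RPE markers (BEST1, PMEL, RDH5 and RDH10) and 9 genes that it picked on these same libraries for their response to the knockout. Of the 14, RDH10, one of the RPE markers, was called between replicate 1 and replicates 2 and 3, beside 1.61% of all genes called higher, and the list median was 0.01. That median joins opposite signs, with -0.27 in WT and 0.37 in POLDIP2 KO. In limma's test of an interaction between replicate 1 and genotype, 4 of the 14 had an unadjusted p under 0.05. Over all 14684 genes tested, 622 did. C3, the central complement component, had 1039 against 1328 and 2139 in WT and 5835 against 7865 and 5701 in POLDIP2 KO. GBP2, an interferon-induced GTPase, had 28.3 against 9.03 and 15.7 in WT and 442 against 217 and 291 in POLDIP2 KO. For both genes all POLDIP2 KO libraries lay above all WT libraries, and the replicate 1 difference did not pass the test (adjusted p = 0.337 and 0.15, limma). For RDH10 and BEST1, values of the 2 lines overlapped.

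A further group of genes was read in one side of the split and not in the other. In 15 rows of the table, 9 of them with a gene symbol, 1 side had at most 3 reads per library and the other more than 20. MIF, a cytokine (chr22:23894383-23895227 on GRCh38), had 5904 in WT replicate 1 against 0 and 0 in WT replicates 2 and 3, and 4619 against 0 and 0 in POLDIP2 KO. FLOT1, a membrane scaffold protein (chr6:30727709-30742732), had 0 against 1998 and 3019.6 in WT and 0 against 1702 and 2099 in POLDIP2 KO. MOAP1, a modulator of apoptosis (chr14:93182199-93184923), had 0 against 476 and 533 in WT and 0 against 454 and 282 in POLDIP2 KO. EHMT2, a histone methyltransferase (chr6:31879759-31897698), had 118 against 0 and 0 in WT and 178 against 0 and 0 in POLDIP2 KO. These values switch between 0 and well above 0 in the same direction in both lines. Adjusted p-values in limma were 3.48e-04 (MIF), 5.58e-05 (FLOT1), 3.48e-04 (MOAP1) and 0.0133 (EHMT2), and no fold is given against libraries at 0. FLOT1 and EHMT2 lie in the major histocompatibility complex on chromosome 6, for which the reference assembly also carries alternate haplotypes. MIF and MOAP1 lie on other chromosomes. Where reads of a gene can be assigned to more than one near-identical sequence, a transcript-level count can move between rows. The part of read assignment in these values was not tested, and the genes are reported as uncertain. A different rule asked for at most 3 reads in at least 1 library and at least 100 normalised counts in another, on whichever side these lay. It was met by 12 of the 366 called genes, which need not switch with the split. It leaves out called rows that do switch at lower levels, such as RAPGEF5, which did not exceed 87.1. Without all 168 genes that met this rule the counts were 260 higher and 145 lower.

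Because the lines share no library, genes that stood out in replicate 1 of one line could be read in the other. In WT, 351 genes were at least 2-fold higher in replicate 1 than in both other replicates. In POLDIP2 KO, replicate 1 was above both others for 263 of these (74.9%), beside 38.5% of all genes tested, and below both for 29 (8.26%). Of 370 genes at least 2-fold lower in WT replicate 1, 202 (54.6%) were below both others in POLDIP2 KO, beside 37.9%, and 80 (21.6%) were above both. Chosen in POLDIP2 KO and read in WT, 335 of 487 higher genes (68.8%) and 195 of 370 lower genes (52.7%) kept their direction, beside 36.1% and 35.6%, while 57 (11.7%) and 75 (20.3%) lay beyond both others on the opposite side. The median log2 difference in the line not used for the choice was 1.28 and 1.00 for genes chosen as higher, and -0.50 and -0.51 for genes chosen as lower. Across genes, which are not independent replicates, the differences of the 2 lines had a Pearson's r of 0.315, and of 0.6 over the 6729 genes with a mean of at least 1000 normalised counts. The difference between replicates 2 and 3 had an r of 0.043 between lines.

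**Figure D4:**
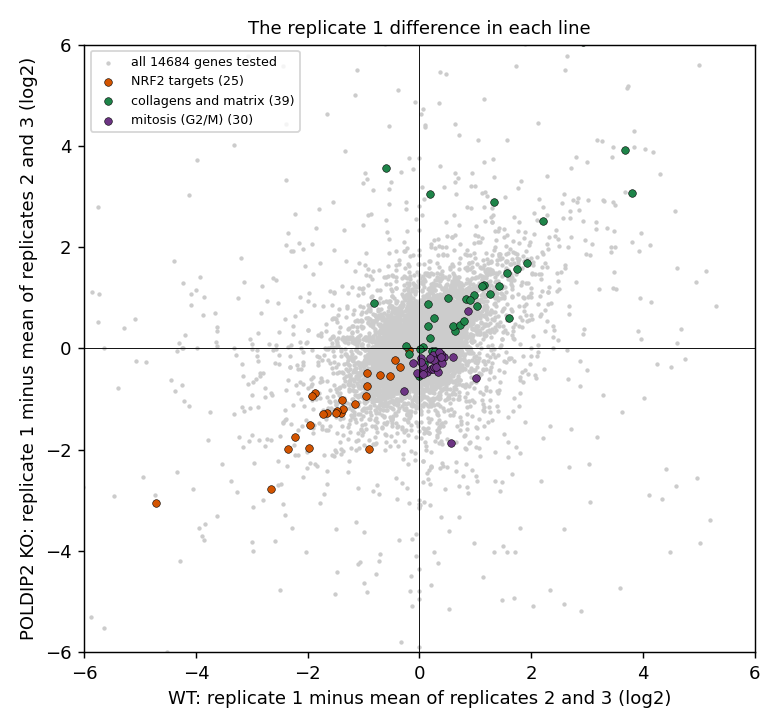
Each point is a gene, with the replicate 1 difference in WT on the horizontal axis and in POLDIP2 KO on the vertical axis, both in log2 units. NRF2 targets lie at the lower left and most matrix genes in the upper right, while mitosis genes lie near the centre; 70 genes lie outside the plotted range.

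The difference between lines was tested as an interaction of replicate 1 with genotype. It was called for 1 gene of 14684 (0.00681%) in limma, with 622 genes at an unadjusted p under 0.05. That gene was VARS1, a valyl-tRNA synthetase gene in the same complex on chromosome 6 (chr6:31777518-31795752), with 1265 against 2908 and 2791 in WT and 0 against 2999 and 2481 in POLDIP2 KO. No NRF2 target and no matrix gene was called in this test, with 1 and 4 at an unadjusted p under 0.05. Of 23 tested NF-kB targets, 8 had an unadjusted p under 0.05 in it (limma). The replicate 1 medians of that list were -0.45 in WT and 0.15 in POLDIP2 KO. The interaction test had 1 replicate 1 library in each line and 2 residual degrees of freedom. With so few libraries, the absence of a call does not show that the lines were alike.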

How the data were processed

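RNA of ARPE-19 WT and POLDIP2 KO cells was sequenced from stranded, poly(A)-selected libraries with single-end reads. Per the submitters' notes, reads were quantified with Salmon 1.8 on GRCh38, summed to genes and normalised in DESeq2 1.34.0. The annotation release is not given in the sources used here. The deposited signal is a read count that the authors divided by the size factor of its library. Because values are whole multiples of 1 read's worth, reads were recovered, and 100% of values came out whole within 0.001.

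Genes with a mean of at least 10 were tested with limma 3.58.1 on log2(value + 1), with terms for genotype and replicate 1, moderated variances with a trend, 3.34 prior and 3 residual degrees of freedom, and Benjamini-Hochberg adjustment over 14684 genes. Fold changes on this scale understate the change of low genes. edgeR 4.0.16 and DESeq2 1.42.0 on recovered reads, and corrections for transcript length and GC content, were added after seeing the data. Scripts were tested on simulated data. Gene symbols came from an identifier table for 29047 of 37902 genes, and genes of the lists that it does not match were not analysed here.

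Named were the 15 genes with the smallest p per direction (symbol known, replicate 1 beyond both others in each line) and the list members described, a few of which are not reported here. The split, members and lists were chosen with earlier results of these data known, so p-values set a difference against the spread between libraries and are not independent evidence. Antioxidant and TEAD cores were searched in RefSeq promoters (GRCh38.p14, without chromosome 8). The CArG box, CCWWWWWWGG with W for A or T, was searched as well. It was held by 4 of 15 promoters of contractile and actin genes, beside 1.01% of all 10563. These were MYLK, CNN2, TPM4 and FLNA, which were not called. It was held by 0 of 31 promoters of collagens and matrix and 0 of 13 of TGF-beta targets. Intervals of single genes are 95%. The labels do not give separate cultures beyond the term biological replicate.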

Additional observations from a re-analysis of the deposited data

Results flagged for a closer look

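VARS1, the valyl-tRNA synthetase gene, was the gene whose replicate 1 difference was called as unequal between the lines by the interaction term. Its normalised counts were 1265 against 2908 and 2791 in WT and 0 against 2999 and 2481 in POLDIP2 KO, with 0 reads in POLDIP2 KO replicate 1. The fitted interaction was -10.24 on the log2 scale (POLDIP2 KO minus WT, adjusted p = 0.00669 in limma), a value that depends on the added count of 1 because 1 library is at 0. The gene lies in the major histocompatibility complex, and the part of read assignment in this value was not tested. No group of 3 libraries was tested for single outlying libraries.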

How the results depend on the processing

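No paired analysis was possible because the replicate number is itself the comparison. The counts of 236 higher and 130 lower genes kept within 1.5 times under other pseudocounts, filters, quantile normalisation, recentring, robust moderation, no genotype term, edgeR (227 and 104), and correction for length and GC content (253 and 149). They also did so on removal of the 168 genes with at most 3 reads in some library and at least 100 normalised counts in another. They fell to 22 and 16 without a variance trend, to 24 and 25 with the interaction term, and to 13 and 10 when tested against 1.5-fold, and rose to 575 and 386 in DESeq2. With libraries left out, where a lone library was assumed to vary like the others, between 0 and 266 genes were higher and between 3 and 113 lower; the lowest values were those without POLDIP2 KO replicate 1, and 87 and 47 were called without replicate 2 of both lines, and 28 and 12 without replicate 3. The 1 interaction became 0 with no filter, 2 with a mean of at least 50 or robust moderation, 15 without the trend, and 0 without any one library of replicates 2 and 3. Genes chosen at 1.5-fold kept their direction in 59.6% (lower, WT to POLDIP2 KO) and 58.2% (reverse); at 4-fold these were 45.8% and 40.7%, and 58.4% for higher genes chosen in POLDIP2 KO; with a mean of at least 50 they were 80.7% and 62.9% (higher and lower, chosen in WT) and 76.3% and 61.7% (chosen in POLDIP2 KO). Of the named genes, UGDH (log2 difference of -0.2209 to 0.0086 over left-out libraries) and KEAP1 (-0.2758 to 0.0131) changed sign, both without replicate 3 of both lines. Of 1824 values of named genes under alternatives that use all libraries, 1558 kept side and direction, 238 lost and 28 gained significance. Of 980 with libraries left out, 593 kept both, 374 lost and 11 gained significance, and 2 changed sign. The cause of these shifts was not tested. The replicate 1 side holds 2 libraries, and read depth limits genes with few reads, such as AKR1B10, at 2 reads in WT replicate 1.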
